A study of Rattus norvegicus with 8 samples.

Results

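The miR-379/miR-410 cluster is a run of miRNA genes within the imprinted Dlk1-Dio3 domain, also known by its host transcript Mirg. Members were chosen by name: every rat miRNA on the array whose number was among the 33 numbers of the cluster, with any variant letter or arm. Names with 32 of these numbers were on the array, and they gave 68 of the 758 miRNAs measured. RNA came from the left medial vestibular nucleus (MVN), where vestibular nerve fibers end in the brainstem, of male Sprague–Dawley rats aged 7 weeks. In the unilateral vestibular deafferentation (UVD) group the eardrum and the ossicles except the stapes were removed on the left side, the vestibule was drilled open and ethanol was washed through it (99% in the sample labels, 100% in the study's methods). The sham operation (SO) group had the same surgery without the opening of the vestibule or the ethanol, so that animals of both groups lost the left eardrum and ossicles. Each group was measured 4 h and 4 d after surgery on 2 arrays, and each array held RNA pooled from 3 rats, with different rats on the arrays of a group.

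miRNAs of this cluster are cut from a long transcript made from the maternally inherited chromosome, and each hairpin can give a mature miRNA from its 5′ side (5p) and from its 3′ side (3p). In neurons the transcript is under the control of the activity-dependent transcription factor Mef2, and several of its miRNAs act in dendrites and at synapses. miR-134 limits the size of dendritic spines, miR-329 and miR-381 take part in dendritic outgrowth that depends on neuronal activity, and miR-485 acts on the presynaptic protein SV2A. A mature miRNA finds its targets mainly through its seed, bases 2 to 8 from the 5′ end.

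Of the 68 members, 67 were found by name in the RefSeq table of mature rat miRNAs (assembly GRCr8), and miR-679 was not. The 67 came from 35 precursors on chromosome 6, and 64 of them lay on the plus strand. The 3 on the minus strand were both arms of miR-299b, which lies opposite miR-299, and miR-409b, whose precursor is opposite miR-409. The precursor of miR-379 came first in chromosome order and that of miR-410 last. The members carried 61 different seeds, and 11 of them shared a seed with another member. These are shown first, with the seed in capitals, because miRNAs with a common seed can address the same targets.
miR-381-3p: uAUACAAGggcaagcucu
miR-539-3p: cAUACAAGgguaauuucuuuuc
miR-299a-3p: uAUGUGGGacgguaaaccgcu
miR-299b-3p: uAUGUGGGacgguaaac
miR-299a-5p: uGGUUUACcgucccacauacau
miR-299b-5p: cGGUUUACcgucccacauac
miR-376b-5p: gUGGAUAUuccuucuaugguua
miR-376c-5p: gUGGAUAUuccuucuauguuu
miR-410-5p: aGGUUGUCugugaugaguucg
miR-494-5p: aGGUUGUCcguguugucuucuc
miR-496-5p: aGGUUGUCcaugguguguuc
In each of the 4 pairs, 1 member was detected on at least 7 arrays and its partner on none. The 3 members of the last group, all 5p arms, were detected on no array. miR-329-3p and miR-376c-3p each shared a seed with a miRNA outside the cluster, miR-362-3p and miR-741-5p.

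The members whose values are followed below, because they had the smallest p-values or a described role in neurons, are shown in the same way.
miR-379-5p: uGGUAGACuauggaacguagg
miR-411-5p: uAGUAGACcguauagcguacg
miR-380-5p: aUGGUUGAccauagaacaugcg
miR-329-3p: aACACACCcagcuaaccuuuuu
miR-495: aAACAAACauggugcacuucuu
miR-667-3p: uGACACCUgccacccagcccaa
miR-134-5p: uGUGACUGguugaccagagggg
miR-134-3p: cUGUGGGCcaccuagucaccaa
miR-485-5p: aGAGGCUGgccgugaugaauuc
miR-154-5p: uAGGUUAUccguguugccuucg
miR-541-5p: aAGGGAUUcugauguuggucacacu
miR-410-3p: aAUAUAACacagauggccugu
miR-379-5p and miR-411-5p, from neighboring precursors at the start of the cluster, had different seeds, and so did miR-134-5p and miR-134-3p from the 2 sides of 1 hairpin.

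Values are total signals per miRNA, summed by the scanner software over 16 spots, quantile normalized here over the 8 arrays, with values under 1 set to 1 (normalized intensity). Changes are differences of mean log2 normalized intensity. The scanner software called 378 to 430 of the 758 miRNAs detected per array, with 378 on UVD 4 h replicate 2, and no spot was saturated. Tests covered 422 miRNAs, those with at least 1 group in which neither array lacked a detection call, with limma and Benjamini-Hochberg adjustment over all 422, and a miRNA was called at an adjusted p under 0.05. All arrays lay on 1 slide, the 4 UVD arrays in 1 row and the 4 SO arrays in the other, with the timepoints in separate columns, so slide position and group cannot be told apart. All 9 neuronal marker miRNAs were detected on all 8 arrays, as were the hindbrain markers miR-10a-5p and miR-10b-5p, and miR-196a-5p, the other hindbrain marker listed, was detected on none.

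Members of the cluster were detected in the MVN of every group. Of the 68 members, 44 passed the filter and were tested, 41 of them detected on all 8 arrays, and the other 24 were detected on no array. Between 41 and 44 members were detected per array, with 41 on UVD 4 h replicate 2. The tested members came from 30 of the 35 precursors, and for 14 precursors both arms were tested. Another 3 members were near the detection limit. miR-299b-3p and miR-377-3p were detected on every array except UVD 4 h replicate 2. miR-667-5p was detected on UVD 4 h replicate 1, on both UVD 4 d arrays and on SO 4 d replicate 1, and on neither SO 4 h array. Its normalized intensity where detected was 9.38, 2.92, 7.45 and 10.1 in that order. With miR-667-5p on the SO 4 h arrays set to the lowest detected signals there, its level was 1.41-fold higher in SO at 4 d and 1.36-fold higher in UVD at 4 h. In each of these groups 1 of 2 arrays had it detected. The lowest detected signals need not limit an undetected miRNA, so these are not strict bounds. Limma, with undetected values at the floor of 1 instead, gave adjusted p = 0.559 and 0.618 for these 2 comparisons.

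Many members had their highest and lowest values on the same arrays. For each tested member the log2 value on each array was set against the mean of that member over the 8 arrays, and the median of these deviations over the 44 members was taken per array. It was 0.17 and 0.21 on the SO 4 h arrays, -0.00 and 0.01 on the UVD 4 h arrays, and -0.10 and -0.12 on the UVD 4 d arrays. The arrays of SO at 4 d stood apart from each other, at 0.02 for replicate 1 and -0.15 for replicate 2. Their members differed by a median of 0.19 on the log2 scale, against 0.06 to 0.09 between the arrays of the other groups. SO at 4 h had the highest group mean for 38 of the 44 members, and UVD at 4 d had the lowest for 31. Both SO 4 h arrays lay above all 6 other arrays for 30 members (68.2%), and among all 422 tested miRNAs for 77 (18.2%). These counts describe the arrays, and no test was made of them.

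**Figure D1:**
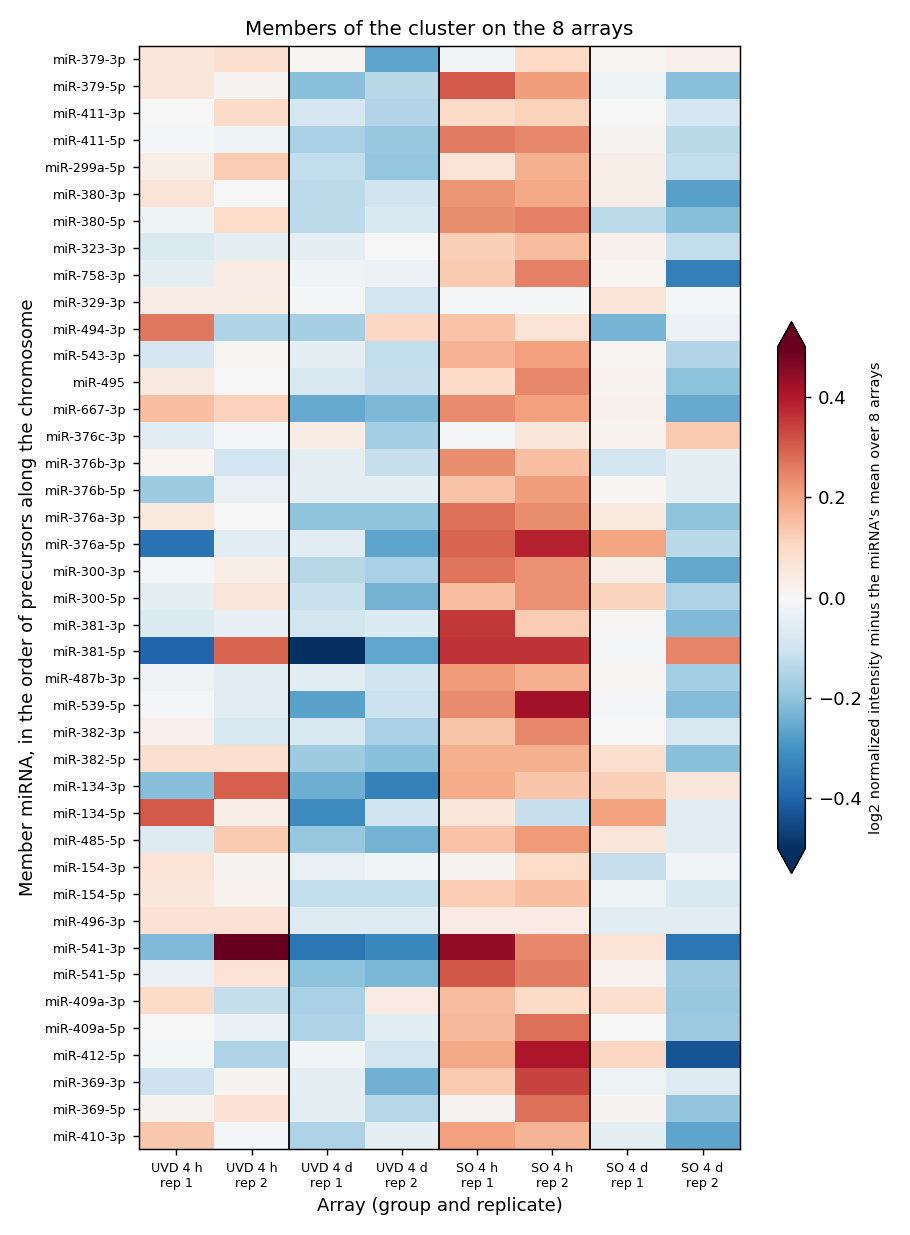
Log2 normalized intensity of the 41 members detected on all 8 arrays, as the deviation from each miRNA's own mean (color scale, log2 units, with values past 0.5 shown at the end of the scale), with arrays in columns and members in rows in the chromosome order of their precursors. The SO 4 h columns are mostly red and the UVD 4 d and SO 4 d replicate 2 columns mostly blue, along the whole cluster.

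**Figure D2:**
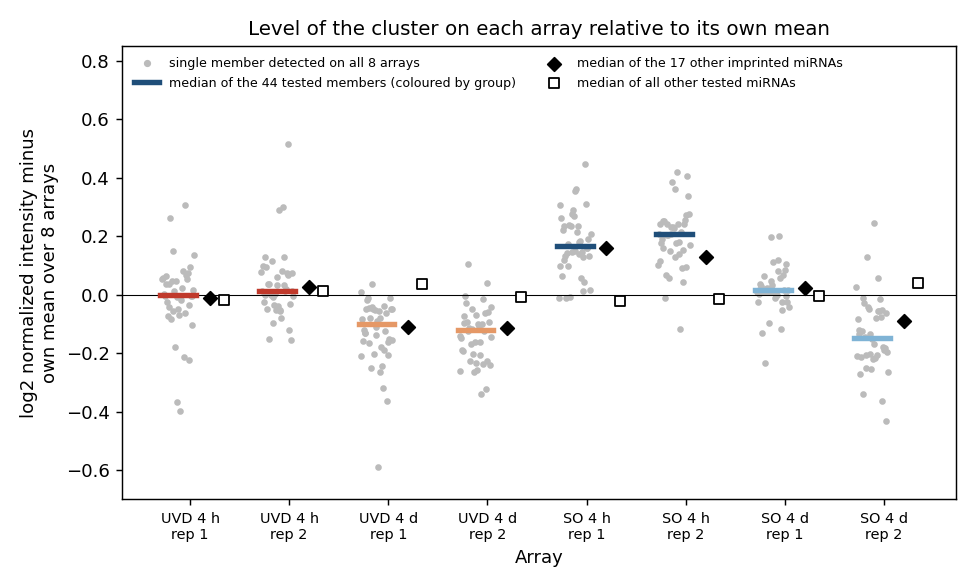
Deviation of log2 normalized intensity from each miRNA's own mean on each of the 8 arrays, with gray points for single members, colored bars for the median of the 44 tested members, diamonds for the median of 17 other imprinted miRNAs and squares for the median of the remaining tested miRNAs. The cluster's medians ran from -0.15 on SO 4 d replicate 2 to 0.21 on SO 4 h replicate 2.

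In the SO group, members of the cluster had lower means at 4 d than at 4 h after surgery, but none was called. Lower means at 4 d were found for 40 of the 44 tested members, whose median log2 fold change was -0.25, a median difference of -15.9%. The median over all 422 tested miRNAs was 0.00, and 47.6% of them had a lower mean. Limma called 0 members, and 1.66% of all tested miRNAs, at an adjusted p under 0.05. Without adjustment, 22 members had a p under 0.05, all with lower means at 4 d, beside 23.7% of all tested miRNAs with a change in either direction. In place of quantile normalization, 3 other scalings set each array to the 75th percentile of all miRNAs, to that of miRNAs detected on all arrays, or to the median of the non-members detected on all arrays. In this order, here and below, the counts were then 3, 11 and 9 members, beside 146, 110 and 103 of the 422 tested miRNAs. The t-test of the study's methods gave 4 members at an unadjusted p under 0.05, beside 47 of the 422 tested miRNAs. After adjustment it gave 0 members, and it could not be computed for 1 member with tied values. For 38 members both 4 d arrays lay below both 4 h arrays, which held for 28.7% of all tested miRNAs in that direction. The count of calls moved with the arrays of SO at 4 d and with the signal used. Without SO 4 d replicate 1 there were 4 calls (miR-300-3p, miR-376a-3p, miR-380-3p and miR-667-3p, all lower) and a median of -0.34, and without replicate 2 there were 0 calls and a median of -0.17. In both of these fits SO at 4 d has 1 array, which is assumed to vary like the arrays of the other groups. With all 8 arrays, 1 member was called after normexp background correction of the median spot signal (miR-381-3p) and 4 in the authors' normalized values (miR-376b-3p, miR-379-5p, miR-411-5p and miR-539-5p), all lower.

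The smallest p in this comparison belonged to miR-380-5p, whose precursor lies near the start of the cluster. miR-380-5p read 27.8 and 28.2 on the SO 4 h arrays, 21.6 and 20.4 on the SO 4 d arrays, 23.3 and 25.3 on the UVD 4 h arrays, and 21.6 and 22.5 on the UVD 4 d arrays. Both SO 4 h arrays were above the other 6, and the SO groups did not overlap. Its log2 fold change was -0.42 with a standard error of 0.07 (adjusted p = 0.0666). Over the alternative analyses the change ran from -0.46 to -0.071, the smallest after normexp, and adjusted p from 0.0472 to 0.379. miR-411-5p followed, at 407 and 402 in SO at 4 h and 343 and 309 in SO at 4 d. Readings of the UVD arrays were 339 and 334 at 4 h against 304 and 298 at 4 d. Both SO 4 h arrays were again above the other 6, and the log2 fold change between the SO timepoints was -0.31 (SE 0.07, adjusted p = 0.130, range over the alternatives -0.38 to -0.11). miR-379-5p, which gives the cluster its name, read 1242 and 1161 in SO at 4 h, 987 and 868 in SO at 4 d, 1046 and 1014 in UVD at 4 h, and 868 and 912 in UVD at 4 d. It shared this order of arrays, with a log2 fold change of -0.38 between the SO timepoints (SE 0.08, adjusted p = 0.130).

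Members with described roles in dendrites did not all follow this pattern. miR-381-3p had its highest values in SO at 4 h, 326 and 279, against 256 and 219 in SO at 4 d. It read 243 and 248 in UVD at 4 h and 240 and 243 in UVD at 4 d, and its log2 fold change between the SO timepoints was -0.35 (SE 0.11, adjusted p = 0.164). miR-329-3p lay between 1242 and 1384 on all 8 arrays, with 1314 on both SO 4 h arrays and a log2 fold change of 0.04 between the SO timepoints (95% interval -0.11 to 0.18). miR-134-5p read 93.3 and 82.7 in SO at 4 h and 103 and 86.2 in SO at 4 d, so that the groups overlapped, with a log2 fold change of 0.10 (95% interval -0.29 to 0.49). Besides miR-134-5p and miR-329-3p, miR-376c-3p (0.05) and the weakly detected miR-667-5p had higher means at 4 d. Over the 41 members detected on all arrays, changes ran from -0.49 for miR-541-3p to 0.10 for miR-134-5p.

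**Figure D3:**
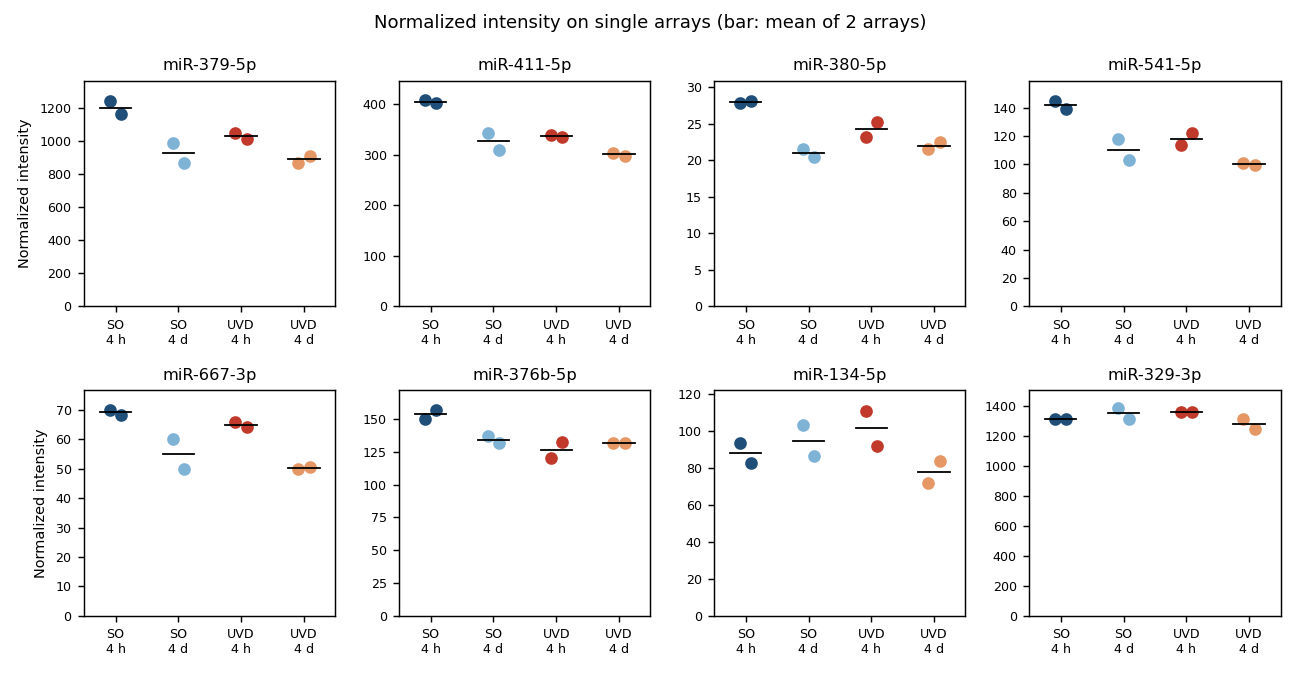
Normalized intensity (linear scale from 0) of 8 members, with a point for each array and a bar for the mean of the 2 arrays of a group. The SO 4 h points are the highest for miR-379-5p, miR-411-5p, miR-380-5p, miR-541-5p, miR-667-3p and miR-376b-5p, while miR-134-5p and miR-329-3p do not have this order.

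In the UVD group, lower means at 4 d than at 4 h were again the majority, and no member was called. The median log2 fold change of the 44 members was -0.14 (-9.06%), against -0.01 over all tested miRNAs, and 37 members had a lower mean at 4 d, against 51.2% of all tested miRNAs. This median was nearer to 0 than that of the SO group here, but not under the 3 other scalings, with -0.12, -0.21 and -0.21 in UVD beside -0.10, -0.21 and -0.18 in SO. Relative to the median of all tested miRNAs, members stood at -0.13 in UVD and -0.30 in SO under each of these scalings. Such relative values can hardly differ between the 3 scalings, which divide each array by a single number. Limma called 0 members and 0% of all tested miRNAs. At an unadjusted p under 0.05 there were 8 members, all lower, against 15.4% of all tested miRNAs. Under the 3 other scalings there were 3, 13 and 13 members, beside 54, 80 and 72 of the 422 tested miRNAs. The t-test of the methods gave 8 members, beside 46 of the 422 tested miRNAs. After adjustment it gave 0 members, and 1 member with tied values was left out. Both 4 d arrays were below both 4 h arrays for 26 members, against 25.4% of all tested miRNAs in that direction. They were above them for 2 members, beside 80 of the 422 tested miRNAs. These 2 were miR-299b-3p and miR-377-3p, both at the floor of 1 on UVD 4 h replicate 2. Without UVD 4 h replicate 1, limma called miR-377-3p here and between the operations at 4 h, with its value at the floor of 1 on the array left. miR-667-3p had the smallest p. On the UVD arrays it read 65.8 and 64.3 at 4 h against 49.8 and 50.7 at 4 d, without overlap. In the SO group it read 70.0 and 68.4 at 4 h against 60.2 and 49.8 at 4 d. Its log2 fold change between the UVD timepoints was -0.37 (SE 0.10, adjusted p = 0.235), and -0.41 to -0.15 over the alternatives. miR-154-5p was next, with 962 and 939 at 4 h against 852 on both arrays at 4 d (log2 fold change -0.16, SE 0.05, adjusted p = 0.282).

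The spine regulator miR-134-5p did not have its highest values in SO at 4 h. It read 111 and 91.6 in UVD at 4 h and 71.8 and 83.6 in UVD at 4 d, and these arrays did not overlap. The log2 fold change was -0.38 between the UVD timepoints (SE 0.15, adjusted p = 0.316). It was -0.24 without UVD 4 h replicate 1 and -0.51 without UVD 4 h replicate 2, the ends of the range when 1 array was left out, and -0.21 in the authors' normalized values. The difference between its time changes in UVD and in SO was -0.48 (95% interval -1.03 to 0.07, adjusted p = 0.492). Members with higher means in UVD at 4 d than at 4 h were miR-323-3p (0.03), miR-376a-5p (0.05), miR-376b-5p (0.06) and miR-412-5p (0.03), and the 3 members that were not detected on UVD 4 h replicate 2, for which the fitted changes rest on a value at the floor of 1.

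The UVD and SO time comparisons share no array. A lower mean at 4 d in both was seen for 34 of the 44 members (77.3%) and for 138 of all 422 tested miRNAs (32.7%). When the 2 operations were averaged in the same fit, the mean at 4 d was lower for 40 members, and the median was -0.19 against 0.00 over all tested miRNAs. At the adjusted threshold 0 members and 1.66% of all tested miRNAs were called by limma. At an unadjusted p under 0.05 there were 23 members, against 28% of all tested miRNAs. Under the 3 other scalings there were 8, 26 and 22 members, beside 126, 131 and 118 of the 422 tested miRNAs. The smallest adjusted p-values among members were 0.0651 for miR-380-5p (log2 fold change -0.28) and 0.0693 for miR-667-3p (-0.35). miR-379-5p (-0.29), miR-541-5p (-0.30), miR-411-5p (-0.24) and miR-154-5p (-0.17) had the same adjusted p of 0.0693. Over the alternative analyses of this comparison 0 to 10 members were called, with 8 when SO 4 d replicate 1 was left out, and all had lower means at 4 d except miR-377-3p, which was called when UVD 4 h replicate 1 was left out and its partner array was at the floor. miR-410-3p, the last miRNA of the cluster, had a log2 fold change of -0.25 (adjusted p = 0.102), miR-485-5p of -0.21 (adjusted p = 0.110) and miR-495 of -0.19 (adjusted p = 0.144).

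**Figure D4:**
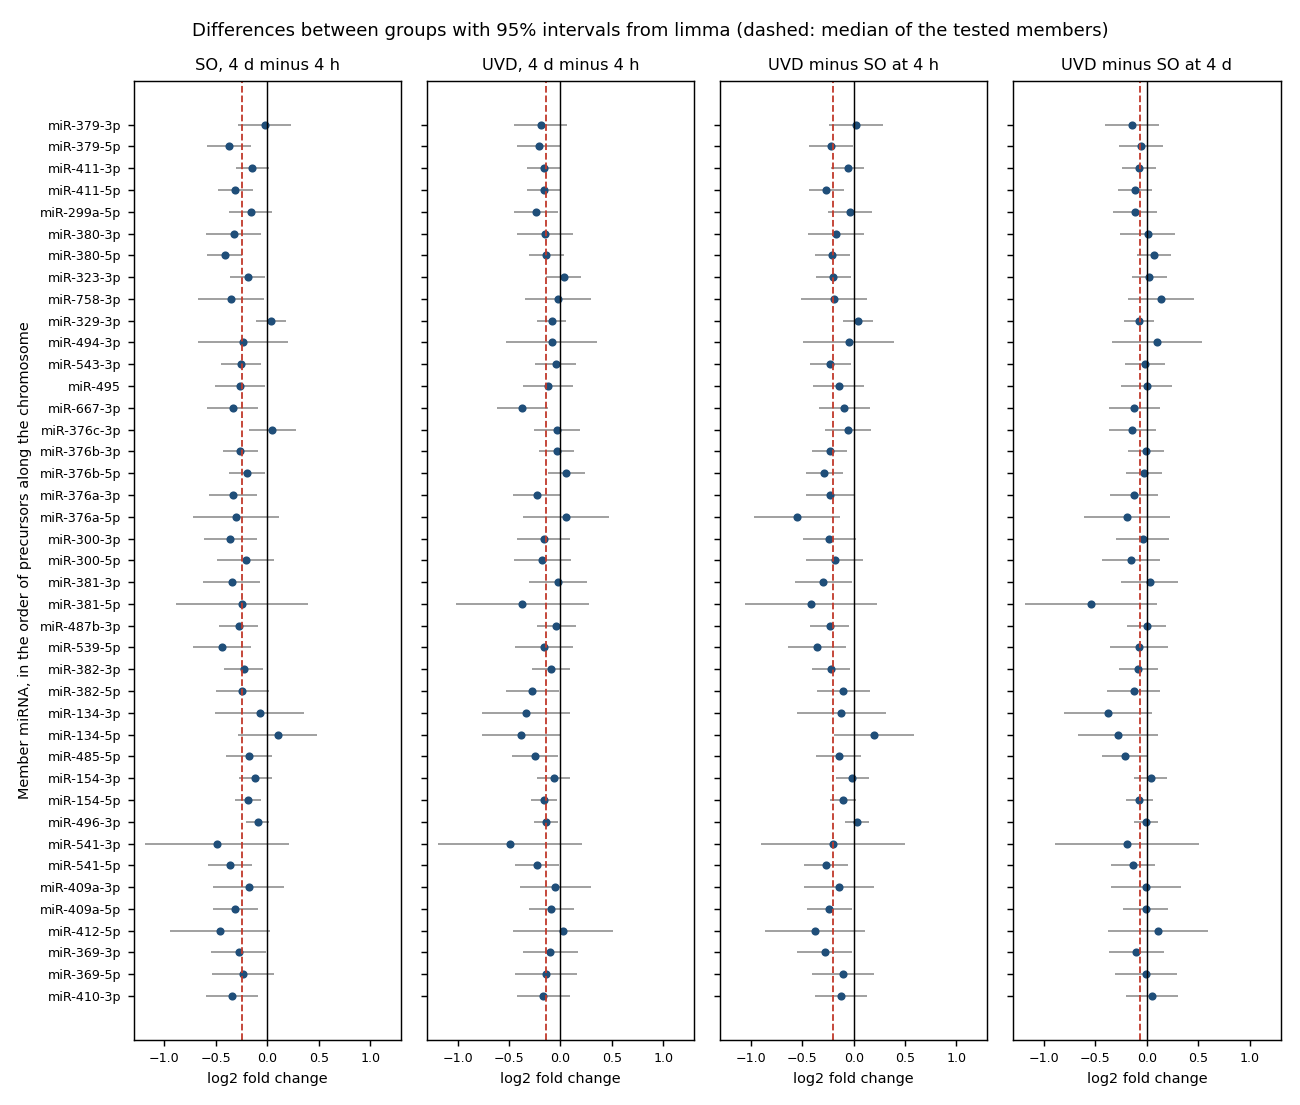
Log2 fold changes of the 41 members detected on all arrays in the 4 comparisons of single groups, with 95% intervals from limma as gray lines and the median of the 44 tested members as a dashed line. The medians are -0.25, -0.14, -0.20 and -0.064 from left to right, and all intervals of the last panel include 0.

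At 4 h, UVD was lower than SO in the means of most members, and none was called. Of the 44 members, 39 had a lower mean in UVD, with a median log2 fold change of -0.20 (-12.7%), against -0.01 over all tested miRNAs, of which 50.9% had a lower mean. This comparison and that of the SO timepoints share the SO 4 h arrays, so their values are not independent. By limma, 0 members and 0.474% of all tested miRNAs were called. At an unadjusted p under 0.05 there were 16 members, all lower in UVD, against 17.1% of all tested miRNAs in either direction. Under the 3 other scalings there were 1, 0 and 1 members, beside 93, 106 and 82 of the 422 tested miRNAs. The t-test of the methods gave 9 members, beside 56 of the 422 tested miRNAs, with 0 members after adjustment and 3 members with tied values left out. Both UVD arrays were below both SO arrays for 30 members, against 28.4% of all tested miRNAs in that direction. They were above them for 2 members, beside 95 of the 422 tested miRNAs. The smallest p was that of miR-376b-5p, which belongs to a family of miRNAs known for A-to-I editing. It read 120 and 133 in UVD and 150 and 157 in SO (log2 fold change -0.28, SE 0.07, adjusted p = 0.219). This change was -0.10, -0.13 and -0.11 under the 3 other scalings, -0.018 after normexp (adjusted p = 0.817) and -0.042 in the authors' values (adjusted p = 0.667). miR-411-5p had a log2 fold change of -0.26 (SE 0.07, adjusted p = 0.219, range over the alternatives -0.28 to -0.096), and its UVD arrays were also below both SO arrays. Among the role members, miR-381-3p had -0.29 (adjusted p = 0.279) and miR-485-5p -0.15 (adjusted p = 0.463), while miR-134-5p had 0.20 (adjusted p = 0.550) and miR-329-3p 0.05 (adjusted p = 0.698). The dimmer arm miR-376a-5p had -0.55, with 14.0 and 17.4 in UVD and 22.1 and 23.6 in SO.

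At 4 d no member differed between the operations past the threshold either. The median log2 fold change of members, UVD against SO, was -0.064 (-4.37%), beside -0.024 over all tested miRNAs, and 32 of 44 members had a lower mean in UVD, beside 56.4% of all tested miRNAs. It was nearer to 0 than the median at 4 h, but under the 3 other scalings the medians were -0.050, -0.060 and -0.080 at 4 d beside -0.054, -0.081 and -0.068 at 4 h. Relative to the median of all tested miRNAs, members stood at -0.032 at 4 d and -0.20 at 4 h under each of these scalings, which can hardly differ in this. Limma called 0 members and 0% of all tested miRNAs. No member had an unadjusted p under 0.05, against 3.79% of all tested miRNAs. Under the 3 other scalings 1, 0 and 1 members did, beside 21 of the 422 tested miRNAs under each. The t-test of the methods gave 1 member, beside 16 of the 422 tested miRNAs. After adjustment it gave 0 members, and 1 member with tied values was left out. Both UVD arrays lay below both SO arrays for 8 members, against 17.3% of all tested miRNAs. The sign of this median rests on 1 array, since it was 0.0025 without SO 4 d replicate 1, with 20 of 44 members lower, and -0.14 without SO 4 d replicate 2, with 40 lower. miR-485-5p, which acts on SV2A, had the smallest p, with 68.4 and 66.2 in UVD against 81.0 and 74.9 in SO (log2 fold change -0.21, 95% interval -0.43 to 0.01, adjusted p = 0.745). Its change ran from -0.27 to -0.099 over the alternatives. miR-134-3p read 7.31 and 6.83 in UVD against 9.38 and 9.0 in SO (log2 fold change -0.38, SE 0.17, adjusted p = 0.745). For this dim arm the change was -0.13, -0.14 and -0.16 under the 3 other scalings, -0.036 after normexp and -0.065 in the authors' values. The UVD and SO values of miR-485-5p did not overlap, nor did those of miR-134-3p. A lower mean in UVD at both timepoints was seen for 28 members (63.6%) and for 32.7% of all tested miRNAs, and these comparisons share no array.

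The difference between operations at 4 h was itself compared with that at 4 d, which equals the difference between the time changes of UVD and SO. The median over members was 0.14, beside 0.02 over all tested miRNAs, and 31 of 44 members had a positive value, that is, a time change that was higher in UVD than in SO. In this difference limma called 0 members and 0.237% of all tested miRNAs. Only miR-380-5p (0.28, 95% interval 0.04 to 0.52) and miR-376b-5p (0.25, 95% interval 0.01 to 0.50) had an unadjusted p under 0.05, against 8.77% of all tested miRNAs, with adjusted p = 0.492 for both. The median was 0.22 without SO 4 d replicate 1 and 0.040 without SO 4 d replicate 2. It was -0.017, -0.00030 and -0.033 under the 3 other scalings, so its sign depends on the scaling, and no member had an unadjusted p under 0.05 there. The median of all tested miRNAs was itself -0.13, -0.11 and -0.15 under these 3 scalings. Set against the median of all tested miRNAs, members stood at 0.12 in the main analysis and at 0.11 under each scaling. Each of these 3 scalings divides an array by a single number, so this relative value can hardly differ between them, and their agreement is not a check. The difference of miR-376b-5p was 0.033, 0.049 and 0.017 under these scalings, and turned to -0.039 after normexp and -0.015 in the authors' values. That of miR-380-5p ran from 0.015 to 0.33 over the alternatives. Averaged over both timepoints, 40 members had a lower mean in UVD than in SO (median -0.12 beside -0.02, and -0.076 without SO 4 d replicate 1). Limma called 0 members and 0% of all tested miRNAs, and 10 members had an unadjusted p under 0.05, all lower, against 13% of all tested miRNAs, where the 3 other scalings gave 1, 2 and 2 members. miR-411-5p (-0.19, adjusted p = 0.335) and miR-541-5p (-0.20, adjusted p = 0.351) had the smallest p-values.

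Scaling moved the zero point of these changes. With arrays scaled to the 75th percentile of all miRNAs instead of quantile normalization, the median of all tested miRNAs was 0.20 between the SO timepoints and 0.15 between the operations at 4 h. Members then had medians of -0.10 and -0.05, and 28 of 44 were lower in UVD at 4 h. Relative to the median of all tested miRNAs, the members stood at -0.25 in the main analysis and -0.30 with this scaling between the SO timepoints, and at -0.18 and -0.20 between the operations at 4 h. Under that scaling 42 of 44 members lay below the median of all tested miRNAs between the SO timepoints, and 41 of 44 between the operations at 4 h.

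Where both arms of a hairpin were tested, most pairs were lower together, as were most members. Between the SO timepoints both arms had lower means for 12 of 14 precursors, where 40 of the 44 members did, and the arms of a precursor differed by a median of 0.11 on the log2 scale. The exceptions were miR-134, with 0.10 for the 5p arm and -0.07 for the 3p arm, and miR-667, whose 5p arm was not detected in SO at 4 h. The arms of miR-379 had the same sign but differed in size, with -0.38 for the 5p arm and -0.03 for the 3p arm. In the UVD group both arms had lower means at 4 d for 11 of 14 precursors, and between the operations at 4 h for 11 of 14. At 4 h the 5p arm of miR-134 stood at 0.20 and its 3p arm at -0.12. Over the 14 precursors, Pearson and Spearman coefficients between the changes of both arms were -0.107 and 0.033 between the SO timepoints. They were -0.234 and 0.055 between the UVD timepoints, and 0.292 and 0.31 between the operations at 4 h. The 14 include miR-667, with 1.67 for the weakly detected 5p arm and -0.34 for the 3p arm between the SO timepoints. The sign and size of the coefficients can rest on this pair, and they were not computed without it. The arms share a transcript and the arrays, and no test was made between them.

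**Figure D5:**
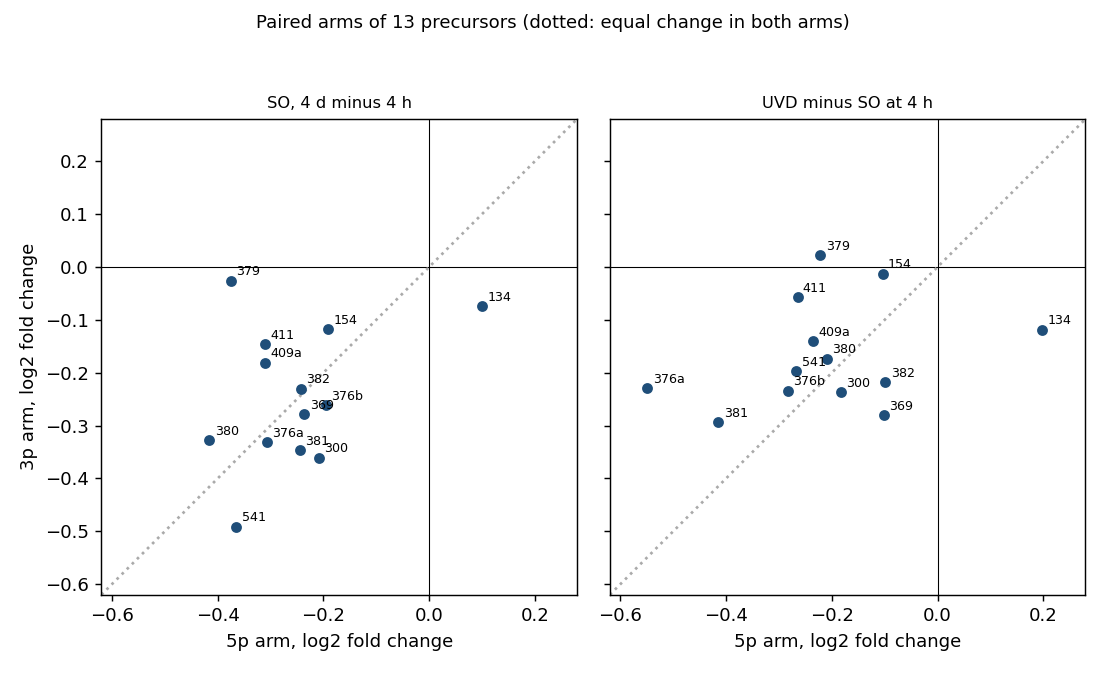
Log2 fold change of the 3p arm against that of the 5p arm for the 13 precursors with both arms detected on all arrays, between the SO timepoints (left) and between UVD and SO at 4 h (right), with a dotted line where both arms are equal. Most precursors lie below 0 on both axes, and miR-134 lies to the right of 0 in both panels.

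The members were also described by position along the cluster. Among the first 11 precursors, from miR-379 to miR-666, the 12 tested members had a median log2 fold change of -0.27 between the SO timepoints. It was -0.26 for the 17 members from miR-543 to miR-382 and -0.19 for the 15 members from miR-134 to miR-410. Between the operations at 4 h the medians of these parts were -0.18, -0.23 and -0.14. Base composition was compared too. Members tested had a median GC content of 45.5%, and the other tested miRNAs with a sequence in the table (341 of 378) had 47.8%. The 148 other miRNAs with a GC content between the members' quartiles had a median log2 fold change of 0.04 between the SO timepoints and 0.00 between the operations at 4 h.

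The other imprinted miRNAs of the Dlk1-Dio3 domain, such as miR-127, miR-136 and miR-433 from the opposite strand of Rtl1, were set beside the cluster. Of 26 on the array, 17 were tested. Between the SO timepoints all 17 had lower means at 4 d, with a median of -0.16, and 0 were called by limma, with 5 at an unadjusted p under 0.05. At 4 h, 14 of 17 had a lower mean in UVD, with a median of -0.14, and at 4 d 14 of 17 did, with a median of -0.09. Between the UVD timepoints 13 of 17 were lower at 4 d, with a median of -0.14. The medians of this list per array were 0.16 and 0.13 in SO at 4 h and between -0.11 and 0.02 on the other arrays.

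Several lists of cell type markers also differed between the SO timepoints. The hindbrain markers miR-10a-5p and miR-10b-5p, encoded in Hox clusters, were both called lower at 4 d in the SO group, by -1.31 and -1.17 on the log2 scale. Their summed normalized intensity was 710 and 749 on the SO 4 h arrays and lay between 259 and 360 on the other 6. Of the 9 neuronal markers, 6 had lower means in SO at 4 d (median -0.19), and 2 were called, miR-137-3p (-0.87) and miR-7a-5p (-1.19). Their sum was between 69736 and 73199 in SO at 4 h and between 68346 and 71747 in SO at 4 d, which overlap. The sum over the 6 markers of choroid plexus and ciliated cells was 5195 to 5378 in SO at 4 h, 6106 to 6420 in SO at 4 d, 5907 to 6040 in UVD at 4 h and 7373 to 9156 in UVD at 4 d, and 4 of the 6 had higher means in SO at 4 d, of which miR-34c-5p was called (0.64). The 5 microglial and leukocyte markers summed to 822 to 844 in SO at 4 h, 1036 to 1199 in SO at 4 d, 867 to 899 in UVD at 4 h and 1099 to 1532 in UVD at 4 d. Sums of 4 muscle markers were 1599 to 2001 in SO at 4 h and 2022 to 2380 in SO at 4 d, and those of 3 oligodendrocyte markers overlapped between these groups. The 4 erythroid markers, all with higher means at 4 d in both operations and none called, summed to 934 to 955 in SO at 4 h, 1018 to 1061 in SO at 4 d, 740 to 944 in UVD at 4 h and 874 to 1287 in UVD at 4 d. Sums of 4 vessel markers were 7919 to 8064 in SO at 4 h, 8208 to 8420 in SO at 4 d, 7586 to 7890 in UVD at 4 h and 7566 to 7614 in UVD at 4 d. Apart from miR-196a-5p, all markers listed were detected on at least 7 arrays. The sum over the cluster was 18537 to 18622 in SO at 4 h, 14696 to 16506 in SO at 4 d, 16474 to 16885 in UVD at 4 h and 15059 to 15078 in UVD at 4 d. The part of these markers in the differences of the cluster was not tested, and fewer cells of a type and less RNA per cell cannot be told apart in dissected tissue.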

How the data were processed

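The authors measured miRNAs of pooled MVNs with 1-color Agilent arrays. They deposited scanner intensity values read with Agilent Feature Extraction 10.7.3.1, among them 1 total signal and 1 detection call per miRNA, and a table of normalized intensity values on a linear scale, quantile normalized by the authors, used here only as an alternative. The signal that the authors normalized is not given in the sources used here. Here the total signals were quantile normalized, values under 1 were set to 1, and log2 was taken. A miRNA entered the tests if 1 or more groups had it detected on each of their arrays (422 miRNAs). The tests used limma 3.58.1 in R 4.3.3 (lmFit on 4 group means, 7 contrasts, eBayes, Benjamini-Hochberg). The model was run on simulated data with noise drawn separately for each miRNA and array, so members that move together on an array were not covered. With 2 arrays per group, their number limits the precision.

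The members and lists were chosen with earlier results of these data known, so no list was tested. Named members were the 2 with the smallest p in each contrast, 8 with roles in neurons or as landmarks of the cluster, and members detected in 1 group and on no array of another. Members named for a highest or lowest value were chosen after their values were seen. Alternatives were other scalings and signals, detection filters, a floor of 4, other variance models, the methods' t-test, a replicate block and leaving out each array.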

Additional observations from a re-analysis of the deposited data

How the results depend on the processing

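In the main analysis 0 members were called in every comparison. Below, SO time and UVD time are 4 d against 4 h within an operation, 4 h and 4 d are UVD against SO at that timepoint, the difference is that of the time changes, and both averages are named.

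Some alternatives called members. After normexp on the median spot signal there were 1 in SO time and 8 in averaged time, and in the authors' normalized values 4 and 10. An intensity trend gave 6 in averaged time. These calls count members alone, and those over all tested miRNAs are not given here. At an unadjusted p under 0.05, normexp gave 20 members beside 102 of all tested miRNAs in SO time, and 26 beside 124 in averaged time. The authors' values gave 27 beside 111 and 28 beside 131, and the intensity trend 25 beside 128 in averaged time. With only miRNAs detected on all 8 arrays, and with a floor of 4, miR-380-5p was called in SO time (1 member). With no filter on detection there was 1 in each comparison, miR-496-3p, whose 2 arrays were equal in every group, and 2 in averaged time. Leaving out 1 array gave 0 to 4 in SO time and 0 to 8 in averaged time, the highest counts without SO 4 d replicate 1. Without UVD 4 h replicate 1, miR-377-3p was called in UVD time, at 4 h, in the difference and in both averages (0 to 1 each), and it was at the floor of 1 on the array left in that group. At 4 d leaving out 1 array gave 0. A group left with 1 array is assumed to vary like the others.

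Member medians moved by more than the spread between replicates as follows. The 75th percentile of all miRNAs as the scale gave -0.10 in SO time, -0.054 at 4 h, -0.017 for the difference, -0.11 for averaged time and -0.048 for averaged operations. The 75th percentile of miRNAs detected on all arrays gave -0.21 in UVD time, -0.081 at 4 h and -0.00030 for the difference. Scaling to the median of non-members gave -0.18 in SO time, -0.21 in UVD time, -0.068 at 4 h and -0.033 for the difference. Normexp gave -0.11 in SO time, -0.072 in UVD time, -0.086 at 4 h, 0.045 for the difference, -0.098 for averaged time and -0.057 for averaged operations. The authors' values gave -0.14, -0.072, -0.095, 0.068 and -0.11 for the first 5 of these. With no filter, and so with the 24 undetected members included, they were -0.17 in SO time, -0.036 in UVD time, -0.073 at 4 h, 0 at 4 d, 0 for the difference and -0.12 for averaged time. Leaving out 1 array, medians ran from -0.34 to -0.17 in SO time, from -0.14 to 0.0025 at 4 d and from 0.040 to 0.22 for the difference, and these ends came from leaving out SO 4 d replicate 1 or replicate 2. The time-change difference of miR-376b-5p turned to -0.039 after normexp and -0.015 in the authors' values. The causes were not tested.

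Replicate numbers are those of the sample titles, and the source names conflict with them, giving both 4 h arrays of a group as 1 and both 4 d arrays as 2. The title numbers do not pair the arrays: the correlations of same-numbered deviations ran from -0.25 to 0.19. With the replicate number as a block, 0 members were called in each comparison, and the medians were -0.25, -0.14, -0.20 and -0.064. With the numbers of UVD 4 h crossed, a setting chosen after seeing the data, 0 members were called in each comparison.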
